A study of Mus musculus with 12 samples.

Results

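Transcript levels of 10 regulators of DNA methylation and Polycomb repression were followed in the pylorus of mice, where the stomach opens into the duodenum, sampled as bulk tissue. The genes were Dnmt1, Dnmt3a, Dnmt3b, Uhrf1, Hells, Ezh2, Ezh1, Suz12, Eed and Tet1. They were taken by gene symbol from the count table, which held all 10 of them among 23420 genes. The 12 libraries fall into 4 groups of 3: wild-type C57BL/6 mice aged 60 days (D60), CEA424-SV40 T Ag transgenic mice of the same strain aged 60 days, and both genotypes aged 80 days (D80). The transgene places simian virus 40 large T antigen under the promoter of carcinoembryonic antigen, so expression follows the cells in which that promoter is active. No treatment is named in the labels. T antigen is known to bind p53 and the retinoblastoma proteins, and viral sequence was not analysed here. The labels do not say whether libraries of a group came from separate animals, so p-values measure the spread between these libraries.

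DNA methylation is copied after each round of replication by DNMT1, which UHRF1 brings to newly made, hemimethylated DNA, while HELLS remodels nucleosomes so that the enzymes can reach it. DNMT3A and DNMT3B methylate DNA that carried no mark before, and TET1 oxidises methylcytosine as a step towards its removal. Polycomb repressive complex 2 (PRC2) methylates lysine 27 of histone H3 through EZH2 or its paralog EZH1, and needs SUZ12 and EED as core subunits. In many tissues EZH2, DNMT1 and UHRF1 are known as genes of dividing cells, whereas EZH1 is known for its expression in resting ones.

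Several libraries differed in ways that the groups do not explain. Counts per library ran from 20121600 to 27633715. Male-type transcripts (Y-linked genes, with at most 1 count of Xist) were found in the 3 D60 wild-type libraries and in D80 transgenic replicate 1, and the other 8 libraries were of female type, so genotype and sex cannot be told apart at D60, nor age and sex in wild-type mice. Where sex is named as a covariate below, its effect was estimated from D80 transgenic replicate 1 alone, the only library of its sex within a group of both. D80 wild-type replicate 3 stood apart in duodenal enterocyte markers, with a sum of 10220 CPM (counts scaled to a library total of 1e+06) where replicates 1 and 2 had 539.8 and 2252. D80 transgenic replicate 1 stood apart in pancreatic acinar markers, with 3790 CPM where replicates 2 and 3 had 904.9 and 768.9. The 11 gastric epithelial markers were detected in every library. Their summed level was 130100 to 226600 CPM in wild-type, 133000 to 164500 in D60 transgenic and 44190 to 60600 in D80 transgenic libraries. The sum mostly reflects its most abundant genes, Gkn1, Gkn2, Tff1 and Tff2. Between genotypes at D80, 8 of the 11 were lower and 3 were not called. Epcam stood at 623.8 ± 29.2 CPM in D80 wild-type and 599.7 ± 28.9 in D80 transgenic libraries. All 10 neuroendocrine markers passed the test at both ages, with a summed level of 296.7 to 539.6 CPM in wild-type, 4311 to 5899 in D60 transgenic and 24920 to 37340 in D80 transgenic libraries. All 9 smooth muscle markers fell at D80, from 10030 to 16550 summed CPM in wild-type to 2466 to 2580 in transgenic libraries. The 6 tested leukocyte and myeloid markers all rose at D80, from 28.8 to 54.6 summed CPM to 100.9 to 226.2. Fibroblast markers also rose, 3 of 6 passing, from 1427 to 1774 summed CPM to 3793 to 4578, and 4 of 8 lymphocyte markers rose, from 2.64 to 23.7 to 14.5 to 56.6 summed CPM. The part of these cell types in the changes of the members was not tested. In bulk tissue, fewer cells of a type and less RNA per cell cannot be told apart.

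The promoter sequences of the members were examined for the binding motif of E2F, the transcription factor family held in check by the retinoblastoma proteins. Windows of 250 bases before to 50 bases after each annotated start were taken from RefSeq on GRCm38.p6, which gave 15 windows for the 10 genes. The words TTTCCCGC, TTTCGCGC, TTTGCCGC and TTTGGCGC were searched on both strands, and TTTCGCGC can overlap its own reverse complement. At least 1 word was present for 5 of the 10 members, Dnmt1, Uhrf1, Hells, Ezh2 and Suz12, against 2.60% of the 27025 genes with a window and 2.26% of all 32851 windows. In the proliferation list described below, 7 of 21 genes with a window had 1. All 4 words contain CG, and the windows of the members held 2 to 47 CG pairs. The shares over all genes and windows were not matched for CG content or for the number of windows per gene. They therefore do not measure an enrichment beyond these properties. No word was found in the windows of Dnmt3a, Dnmt3b, Ezh1, Eed and Tet1, which says only that these letters are not in these windows. The surroundings of 5 matches are shown, so that the motif can be set beside the changes of each gene. Each is written along the strand of the gene, with the match in capitals. They lie at chr9:20952799-20952873 (Dnmt1, minus strand), chr17:56304092-56304171 (Uhrf1, plus), chr19:38930892-38930971 (Hells, plus), chr6:47595001-47595063 (Ezh2, minus) and chr11:79992856-79992930 (Suz12, plus).
Dnmt1: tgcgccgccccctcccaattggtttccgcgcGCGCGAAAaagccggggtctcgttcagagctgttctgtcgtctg
Uhrf1: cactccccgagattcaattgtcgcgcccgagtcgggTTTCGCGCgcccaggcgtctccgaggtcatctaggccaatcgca
Hells: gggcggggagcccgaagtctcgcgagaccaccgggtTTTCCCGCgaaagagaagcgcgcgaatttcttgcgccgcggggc
Ezh2: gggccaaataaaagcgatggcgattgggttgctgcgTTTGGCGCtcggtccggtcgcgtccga
Suz12: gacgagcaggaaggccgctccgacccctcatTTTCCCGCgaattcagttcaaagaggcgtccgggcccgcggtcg
The Dnmt1 match reads as the reverse complement of TTTCGCGC and begins 219 bases before the start of the third of its 3 windows, which holds a further match after its start. The Uhrf1 match begins 185 bases before the start of the second of 2 windows. The Hells match begins 62 bases before its start and that of Suz12 219 bases before. The Ezh2 match lies just after the annotated start. A match is a description of the letters and not evidence of binding.

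Levels are given as CPM, for which library sizes were first corrected with TMM factors (trimmed mean of M-values). Group values are mean ± SD with n = 3. To compare genes with each other, CPM was divided by the length of all annotated exons in kilobases. On this scale Suz12 stood highest in D60 wild-type pylorus, at 11.3 ± 1.55 CPM per kilobase, followed by Eed at 8.11 ± 0.789. Dnmt1 (5.91 ± 0.719), Uhrf1 (5.27 ± 0.276) and Ezh1 (5.03 ± 0.286) came next, and these neighbours did not differ beyond their spread. Ezh2 (3.17 ± 0.299) and Dnmt3a (2.97 ± 0.240) also lay within each other's spread, Hells stood at 1.31 ± 0.109, and Dnmt3b (0.540 ± 0.0437) and Tet1 (0.266 ± 0.110) were the lowest. In D80 transgenic pylorus Dnmt1 (12.1 ± 1.14), Suz12 (11.6 ± 0.0707) and Uhrf1 (10.7 ± 1.53) led and were not apart beyond their spread, and Eed followed at 6.90 ± 0.208. The counting annotation is not given in the sources used here, so the lengths, from GENCODE M21, may differ from those of the authors.

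**Figure D1:**
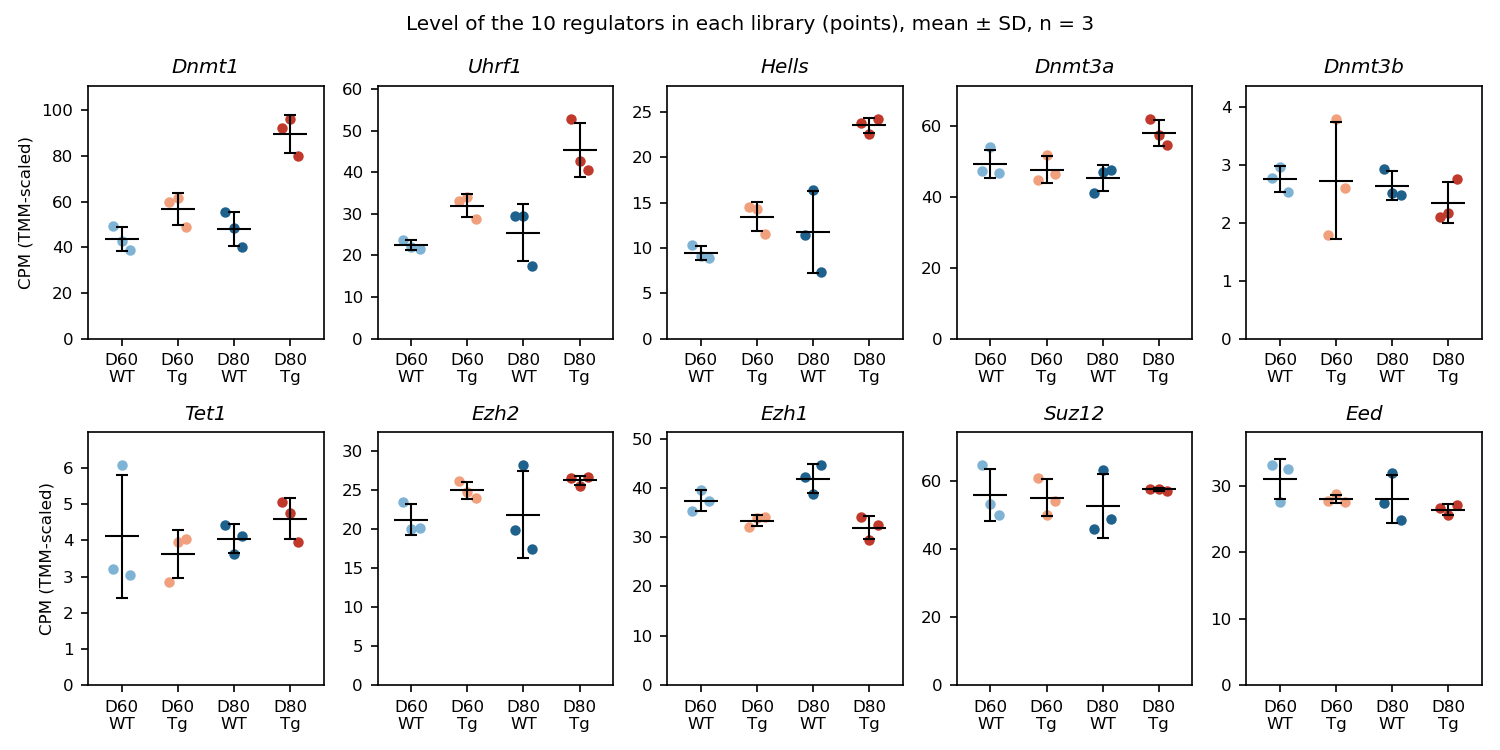
Level of each of the 10 genes in CPM (y axis, from 0) in the 4 groups (x axis: wild-type, WT, and transgenic, Tg, at each age). Points are libraries, bars are mean ± SD with n = 3. Dnmt1, Uhrf1, Hells and Dnmt3a in all 3 D80 transgenic libraries lie above all 3 D80 wild-type libraries, and Ezh1 lies below them. The share of all genes without overlap in CPM was not counted.

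The comparison of genotypes at D80 shows how the regulators stand in the transgenic pylorus at the older age. The 3 genes of maintenance methylation, Dnmt1, Uhrf1 and Hells, rose by 1.78-fold to 2.01-fold, and the de novo enzyme Dnmt3a rose by 1.28-fold. The PRC2 subunit Ezh1 fell to 0.763 of its wild-type level. Ezh2, Suz12, Eed, Dnmt3b and Tet1 did not pass the test. Of the 10 members, 4 were therefore higher and 1 was lower, where 19.4% of all 15369 tested genes were higher and 22.0% were lower. The median log2 fold change of the members was 0.22, and that of all tested genes was -0.07.

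Dnmt1 (chromosome 9, 20907209 to 20959888, minus strand, in GENCODE M21 on GRCm38) held 55.4, 48.4 and 40.2 CPM in the D80 wild-type libraries and 92.4, 96.2 and 80.1 CPM in the D80 transgenic libraries, in the order of replicates 1 to 3. The groups did not overlap, and every transgenic library lay well above the highest wild-type value. The share of all genes without overlap in CPM was not counted, so overlap in CPM, here and below, only describes the values. The log2 fold change was 0.90 (SE 0.15, 95% confidence interval 0.58 to 1.22, adjusted p = 6.93e-04). In every one of 24 alternative settings Dnmt1 remained past the threshold at D80, with log2 fold changes from 0.76 to 1.30. At D60 it held 49.3, 42.6 and 38.8 CPM in wild-type and 60.0, 61.5 and 48.9 CPM in transgenic libraries, and the groups overlapped. The difference at D60 was 0.38 (SE 0.15, interval 0.06 to 0.70, adjusted p = 0.232).

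Uhrf1 (chromosome 17, 56303321 to 56323486, plus strand), the reader of hemimethylated DNA, held 29.4, 29.6 and 17.6 CPM in D80 wild-type and 52.8, 42.7 and 40.6 CPM in D80 transgenic libraries. Replicate 3 was the lowest of the wild-type libraries, and the groups did not overlap. The log2 fold change was 0.83 (SE 0.18, interval 0.43 to 1.24, adjusted p = 0.00447). Across the alternative settings the D80 value ran from 0.49, without D80 wild-type replicate 3 and D80 transgenic replicate 1, to 1.22 with no composition factor. Without D80 wild-type replicate 3 alone, the Uhrf1 value in the D60 comparison passed the threshold at an almost equal size (0.51, adjusted p = 0.040). At D60, wild-type libraries held 23.8, 22.1 and 21.5 CPM and transgenic libraries 33.2, 33.9 and 28.8 CPM. They did not overlap, but with all libraries the difference missed the threshold (0.51, SE 0.19, interval 0.10 to 0.92, adjusted p = 0.208).

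Hells (chromosome 19, 38930915 to 38971051, plus strand), the chromatin remodeller also called LSH, had the largest estimated change of the members at D80. It held 11.5, 16.4 and 7.32 CPM in D80 wild-type and 23.8, 22.6 and 24.3 CPM in D80 transgenic libraries. The groups did not overlap, and the wild-type values were the more widely spread. The log2 fold change was 1.01 (SE 0.23, interval 0.50 to 1.52, adjusted p = 0.00531). At D60 the libraries held 10.4, 9.14 and 8.90 CPM in wild-type and 14.5, 14.3 and 11.6 CPM in transgenic mice, without overlap, and the difference of 0.51 (SE 0.23, adjusted p = 0.343) did not pass.

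Dnmt3a (chromosome 12, 3806007 to 3914443, plus strand) held 41.0, 47.1 and 47.5 CPM in D80 wild-type and 62.0, 57.4 and 54.6 CPM in D80 transgenic libraries, without overlap. The log2 fold change was 0.36 (SE 0.11, interval 0.12 to 0.60, adjusted p = 0.020). Single libraries decided whether Dnmt3a passed. Its adjusted p was 0.0573 when D80 wild-type replicate 1 was left out, 0.0722 when D80 transgenic replicate 1 was, and 0.0505 when D80 transgenic replicate 2 was. A fit that also held sex gave 0.31 (adjusted p = 0.0717). At D60, where the groups overlapped, the change was -0.05 (SE 0.11, adjusted p = 0.911). Dnmt3b (chromosome 2, 153649450 to 153687730, plus strand) was low in all 12 libraries, at 1.79 to 3.79 CPM or 44 to 91 counts. Its change at D80 was -0.17 (interval -0.77 to 0.43, adjusted p = 0.651), an interval wide enough to hold the change of Dnmt3a. Tet1 (chromosome 10, 62804570 to 62908996, minus strand) was at 2.85 to 6.08 CPM, and its change at D80 was 0.18 (interval -0.42 to 0.78, adjusted p = 0.626).

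Among the PRC2 genes, the paralogous catalytic subunits differed in their calls. Ezh1 (chromosome 11, 101191115 to 101226463, minus strand) held 42.3, 38.8 and 44.6 CPM in D80 wild-type and 34.0, 29.4 and 32.4 CPM in D80 transgenic libraries, without overlap. It fell by 0.39 on the log2 scale (SE 0.10, interval -0.61 to -0.17, adjusted p = 0.00961). Leaving out D80 transgenic replicate 3 ended the call for Ezh1 (-0.36, adjusted p = 0.0527), as did a fit of the D80 libraries alone (-0.34, adjusted p = 0.0569). The call also depends on the scaling of libraries. With upper-quartile factors the change was -0.23 (adjusted p = 0.117), and with no composition factor it was 0.03 (adjusted p = 0.890). Without that factor the median of all genes moved by 0.41, from -0.07 to 0.34, and relative to this median Ezh1 stood at -0.31, against -0.32 with TMM. Of all genes called at D80, 46.8% were higher with TMM, 63% with upper-quartile factors and 83.6% with no composition factor.

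Ezh2 (chromosome 6, 47530139 to 47595341, minus strand) held 19.8, 28.1 and 17.5 CPM in D80 wild-type and 26.5, 25.5 and 26.6 CPM in D80 transgenic libraries. Wild-type replicate 2 lay above all 3 transgenic libraries, so the groups overlapped. The change was 0.26 (SE 0.16, interval -0.08 to 0.61, adjusted p = 0.203). When D80 wild-type replicate 2 was left out, Ezh2 passed (0.49, adjusted p = 0.0143). It also passed with no composition factor (0.68, adjusted p = 0.00931). At D60 the libraries held 23.5, 19.9 and 20.1 CPM in wild-type and 26.1, 24.8 and 24.0 CPM in transgenic mice, without overlap (0.24, SE 0.16, adjusted p = 0.565). The core subunits did not pass the test at D80. Suz12 (chromosome 11, 79993106 to 80034123, plus strand) was at 52.6 ± 9.33 CPM in D80 wild-type and 57.5 ± 0.351 in D80 transgenic mice (0.13, SE 0.14, adjusted p = 0.492). With no composition factor Suz12 passed (0.55, adjusted p = 0.00596). Eed (chromosome 7, 89954654 to 89980983, minus strand) was at 28.04 ± 3.62 and 26.4 ± 0.801 CPM (-0.09, interval -0.34 to 0.17, adjusted p = 0.581).

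**Figure D2:**
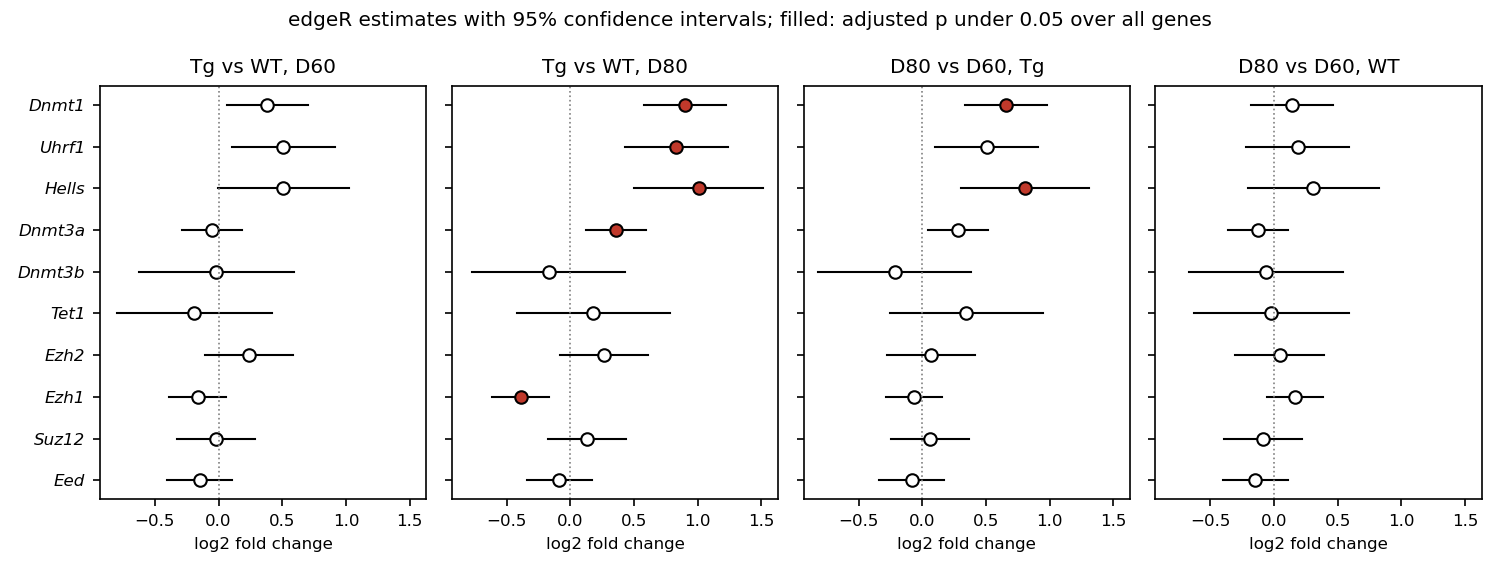
Log2 fold change (x axis) of each of the 10 genes (y axis) in 4 comparisons, with 95% confidence intervals from edgeR. Filled points passed an adjusted p of 0.05 over all genes, which 5 members did between genotypes at D80 and 2 did between ages in transgenic mice.

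At D60 none of the 10 members passed the edgeR quasi-likelihood test between genotypes, where 3.66% of all genes were higher and 0.241% lower. At an unadjusted p of 0.05, 2 members passed with edgeR, 3 with DESeq2 and 2 with limma-voom, and 0 passed after adjustment with any of these tools. Of all 15369 genes, 2255 had an unadjusted p under 0.05 with edgeR, 2523 with DESeq2 and 2019 with limma-voom. The D60 estimates of Dnmt1, Uhrf1 and Hells were 0.38 to 0.51. The interaction of genotype and age asks whether the genotype difference itself changed between the ages. It was called for 0 of the 10 members with edgeR and limma-voom, with 2 members at an unadjusted p under 0.05 with each tool. Of all 15369 genes, 3567 had an unadjusted p under 0.05 for the interaction with edgeR, 3702 with DESeq2 and 3379 with limma-voom. Among all genes, 2.77% had a higher and 2.23% a lower interaction. The estimates were 0.52 for Dnmt1 (SE 0.21, adjusted p = 0.158) and 0.41 for Dnmt3a (SE 0.15, adjusted p = 0.135), the latter passing with DESeq2 (0.46, adjusted p = 0.0436). With edgeR, the genotype difference was thus not shown to differ between the ages for any member.

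Between ages, the transgenic libraries differed in 2 members and the wild-type libraries in none. From D60 to D80 in transgenic mice, Dnmt1 rose by 1.58-fold (log2 0.66, SE 0.15, adjusted p = 0.00566), and Hells rose by 1.75-fold (log2 0.81, SE 0.23, adjusted p = 0.0189). The Hells call ended without D60 transgenic replicate 3 (0.70, adjusted p = 0.0771). In this comparison 17.7% of all genes were higher and 18.0% were lower. Uhrf1 (0.50, SE 0.18, adjusted p = 0.0509) and Dnmt3a (0.28, SE 0.11, adjusted p = 0.0606) lay just beyond the threshold, and each passed in several alternative settings, DESeq2 among them (adjusted p = 0.0248 for Uhrf1 and 0.0225 for Dnmt3a). Without D60 wild-type replicate 1 or D80 wild-type replicate 1, neither of which is in the comparison itself, both genes passed. Uhrf1 passed as well with the replicate number as a block (adjusted p = 0.029). Ezh2 was at 24.9 ± 1.09 CPM at D60 and 26.2 ± 0.586 CPM at D80 in transgenic mice (0.07, SE 0.16, adjusted p = 0.754). In wild-type mice 0 members had an unadjusted p under 0.05 with edgeR, DESeq2 or limma-voom, where 1925, 2169 and 1367 of all 15369 genes had. After adjustment 0 members were called, and of all genes 0% were higher and 0% lower with edgeR. The zero over all genes did not hold in every fit. Without D80 wild-type replicate 1, 376 were higher and 20 lower, and DESeq2 called 164 and 90. A fit of the 2 groups alone called 1 and 4, and a fit without D80 transgenic replicate 1 called 4 and 4. Xist held 0 to 1 counts in the D60 and 2218 to 2768 in the D80 wild-type libraries. The absence of calls therefore does not mean that no gene differed. In this comparison all D60 libraries were of male type and all D80 libraries of female type. The 2 genotype comparisons and the 2 age comparisons share libraries and are not independent of each other.

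Transcripts of dividing cells were read beside these changes. A list of 26 proliferation genes (replication licensing, S phase and mitosis, without the members) was used for this. At D80, 21 of the 26 were higher and 0 lower, with a median of 0.71, and 16 were higher with sex as a covariate. Over all genes, 19.4% were higher and 22.0% lower at D80. The count was 13 without D80 wild-type replicate 3 and D80 transgenic replicate 1, the libraries highest in duodenal and pancreatic markers. Over all genes, 2792 of 15369 were higher with sex as a covariate and 2660 of 15534 without those 2 libraries. The ribonucleotide reductase subunit Rrm2 rose by 1.49 (SE 0.19, adjusted p = 1.32e-04), the replicative helicase subunits Mcm2 by 1.56 (SE 0.20) and Mcm4 by 0.90 (SE 0.14), and the licensing factor Cdt1 by 0.94 (SE 0.14). The summed level of the list was 1126, 1122 and 666.2 CPM in D80 wild-type and 1678, 1772 and 1589 CPM in D80 transgenic libraries. D80 wild-type replicate 3 was thus the lowest for the list, as it was for Dnmt1, Uhrf1, Hells and Ezh2. At D60 the sums were 1026, 866 and 883.3 CPM in wild-type and 1261, 1201 and 1033 CPM in transgenic libraries, and 1 of the 26 genes was higher. Over all genes, 3.66% were higher at D60. The count of 1 of the 26 at D60 was 5 when D80 wild-type replicate 3 was left out, 3 when replicate 1 was, and 0 when replicate 3 of D60 wild-type or replicate 2 of D60 transgenic mice was. In these fits, in the order named, 636, 669, 364 and 367 of all genes were higher, against 562 with all libraries. The part of cell division in the changes of the members was not tested, and the ratios that follow are a description.

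Each member was also expressed per 1000 counts of the proliferation list in its own library, a value that needs no scaling between libraries. The denominator itself was higher at D80 in transgenic mice, so on this scale the median of all genes was -0.88 on the log2 scale at D80, 62.5% of all genes were lower without overlap and 9.10% were higher without overlap. Dnmt1 stood at 49.2, 43.1 and 60.4 per 1000 in D80 wild-type and at 55.1, 54.3 and 50.4 in D80 transgenic libraries, so the groups overlapped (difference 0.08 on the log2 scale, exact permutation p = 0.60). Uhrf1 stood at 26.1, 26.3 and 26.3 in wild-type and 31.5, 24.1 and 25.6 in transgenic libraries (difference 0.03, exact p = 1.0). Hells stood at 10.2, 14.6 and 10.99 against 14.2, 12.8 and 15.3 (difference 0.25, exact p = 0.30). These differences lay near 0 where the median gene stood at -0.88. The overlap of Dnmt1 rested on D80 wild-type replicate 3, without which the groups did not overlap (0.21), and that of Hells on D80 wild-type replicate 2 (0.41 without it). For Uhrf1 the groups did not overlap without D80 transgenic replicate 1 (-0.08). At D60, Uhrf1 (0.17) and Hells (0.17) were higher in transgenic mice without overlap (exact p = 0.10), as were 5.42% of all genes, and Dnmt1 overlapped (0.05).

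On the same scale the PRC2 genes were lower at D80, as most genes were. Ezh2 stood at 17.6, 25.04 and 26.2 per 1000 in D80 wild-type and at 15.8, 14.4 and 16.7 in D80 transgenic libraries, without overlap (difference -0.54 on the log2 scale). Ezh1 stood at 37.6, 34.6 and 66.9 against 20.3, 16.6 and 20.4 (difference -1.22), Eed differed by -0.91 and Suz12 by -0.69, each without overlap. Dnmt3b differed by -1.0 and Tet1 by -0.65, also without overlap. Dnmt3a overlapped (difference -0.47, exact p = 0.20), and stood at -0.18 without D80 wild-type replicate 3. Lower without overlap were thus 6 of the 10 members, close to the 62.5% of all genes, and Ezh1, Dnmt3b and Eed lay below the median gene while Suz12, Tet1 and Ezh2 lay above it. For these 6 genes the exact two-sided permutation p was 0.10, the smallest that 3 libraries against 3 allow. From D60 to D80 in transgenic mice, Ezh2 differed by -0.46, Ezh1 by -0.60, Suz12 by -0.46 and Eed by -0.62 per proliferation count, and Hells by 0.28, each without overlap (exact p = 0.10). In that comparison 56.0% of all genes were lower and 12.7% higher without overlap, with a median of -0.51. Between genotypes at D60, Dnmt3a, Ezh1, Suz12 and Eed, 4 of the 10 members, were lower without overlap (-0.35 to -0.50), as were 37.7% of all genes, whose median was -0.34. Between ages in wild-type mice, 1 member, Uhrf1, was higher without overlap (0.11) and 0 were lower, where 2.18% of all genes were higher and 1.73% lower. All 10 values share 1 denominator per library and are not independent. When only Mcm2 to Mcm7 formed the denominator, no difference at D80 moved by more than the spread between libraries.

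**Figure D3:**
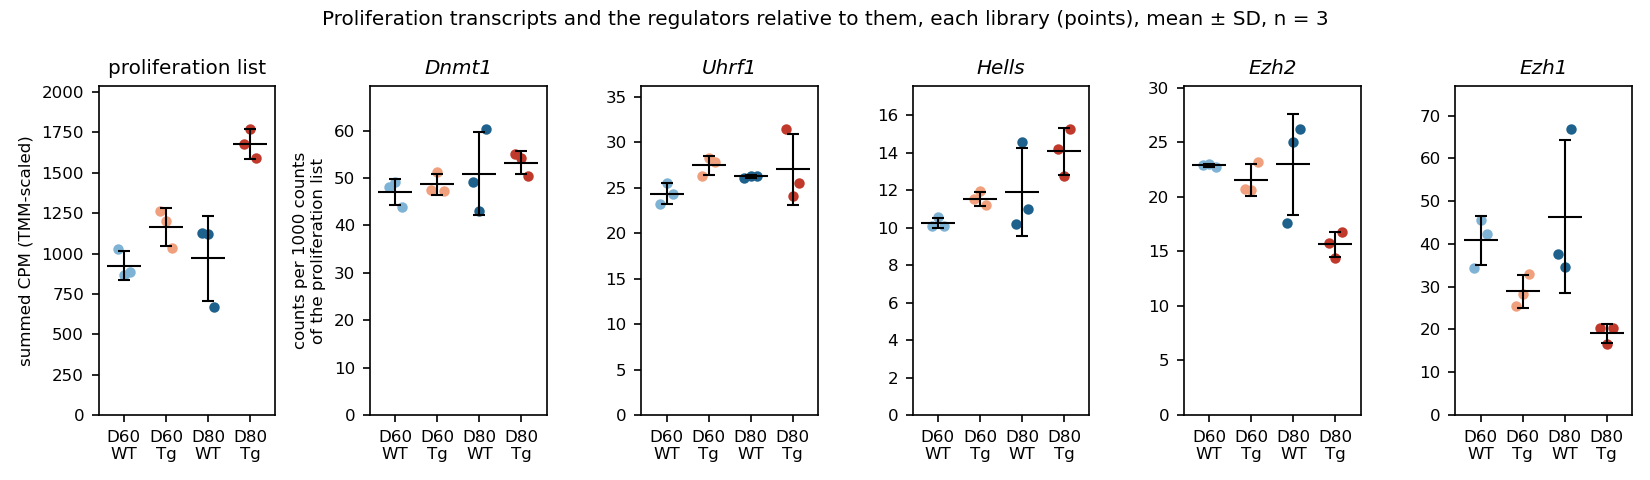
Left, summed level of the 26 proliferation genes in CPM. The other panels give counts of Dnmt1, Uhrf1, Hells, Ezh2 and Ezh1 per 1000 counts of that list in the same library (y axes from 0, points are libraries, bars are mean ± SD, n = 3). The D80 transgenic libraries overlap with wild type for Dnmt1, Uhrf1 and Hells and lie below it for Ezh2 and Ezh1, as they do for 62.5% of all genes on this scale.

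Paralogs were set against each other within each library, which also needs no scaling. The ratio of Ezh2 to Ezh1 counts was 0.664, 0.504 and 0.538 in D60 wild-type and 0.816, 0.729 and 0.702 in D60 transgenic libraries. At D80 it was 0.469, 0.725 and 0.392 in wild-type and 0.778, 0.867 and 0.821 in transgenic libraries. The transgenic libraries lay above the wild-type libraries at both ages, with differences of 0.40 at D60 and 0.69 at D80 on the log2 scale (exact permutation p = 0.10 for each, the smallest possible). At D60 this coincides with sex. The ratio of Dnmt3b to Dnmt3a counts was 0.0714, 0.0534 and 0.0520 in D80 wild-type and 0.0339, 0.0379 and 0.0505 in D80 transgenic libraries, without overlap (difference -0.54, exact p = 0.10). At D60 it overlapped between the genotypes (difference -0.03, exact p = 0.90).

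**Figure D4:**
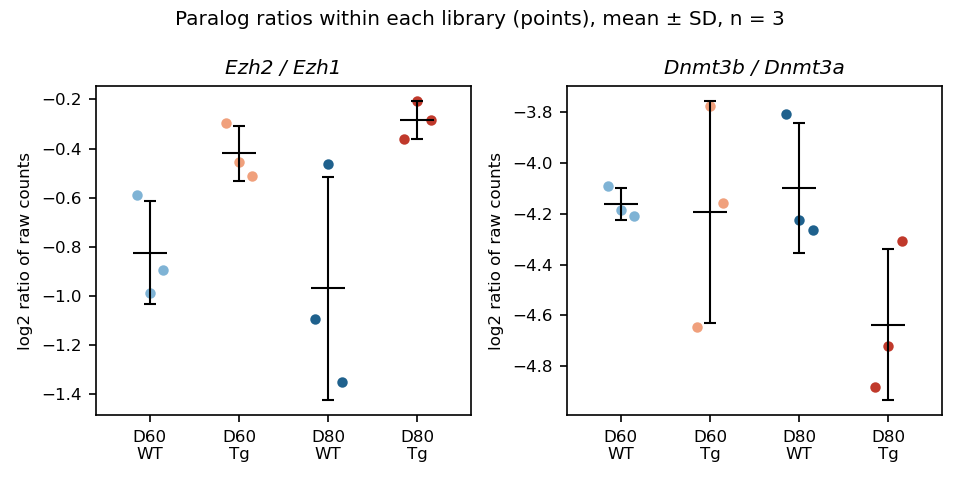
Log2 ratio of raw counts of Ezh2 to Ezh1 (left) and of Dnmt3b to Dnmt3a (right) within each library (points), with mean ± SD, n = 3. The Ezh2 to Ezh1 ratio is higher in all transgenic than in all wild-type libraries at each age, and the Dnmt3b to Dnmt3a ratio is lower in all D80 transgenic than in all D80 wild-type libraries.

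The genes whose profile over the 12 libraries lay closest to each called member were found among all genes with a mean of at least 5 CPM, by the root mean square difference of centred log2 CPM. Closest to Dnmt1 were Kif20a (0.10), Mcm4 (0.12) and the DNA ligase Lig1 (0.12), where the SD of Dnmt1 itself over the libraries was 0.45. Closest to Uhrf1 were Gtse1 (0.10), Incenp (0.12) and the mitotic kinesin Kif11 (0.12). Closest to Hells were the topoisomerase Top2a (0.11), Fam111a (0.14) and the cyclin Ccnb1 (0.14). Closest to Dnmt3a were R3hdm1 (0.09), Phf20l1 (0.10) and Lims1 (0.10), with an SD of Dnmt3a of 0.17. Closest to Ezh1 were the retinoblastoma relative Rbl2 (0.08), the histone methyltransferase Suv420h1 (0.09) and Exoc6 (0.09), with an SD of Ezh1 of 0.18. Among the members themselves, Ezh2 and Suz12 (0.14) and Dnmt1 and Uhrf1 (0.15) were the closest pairs. These distances describe the 12 libraries, which share their depth and group structure.

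The other genes of both systems were read from lists of known members at D80. Of all tested genes at D80, 19.4% were higher and 22.0% were lower, shares to set beside the list counts here and below. Of 21 tested further genes of DNA methylation, 4 were higher and 1 was lower (median -0.09). Gadd45g, a stress protein linked to demethylation, rose by 0.87 (SE 0.19, adjusted p = 0.0035). Zfp57, a zinc finger protein that protects methylation of imprinted regions, rose by 2.33 (SE 0.55) from 0.282 ± 0.0751 to 1.44 ± 0.151 CPM, and it passed the filter on low counts only through the D80 transgenic libraries, so that its call is conditional on being high there. Mbd4, a glycosylase that repairs deaminated methylcytosine, rose by 0.94 (SE 0.31, adjusted p = 0.030). The Mbd4 call ended in a fit of the D80 libraries alone and when replicates 2 or 3 of either D80 group were left out (adjusted p = 0.0602 to 0.0945). Usp7, a deubiquitinase that stabilises DNMT1 and UHRF1, fell by 0.35 (SE 0.10, adjusted p = 0.0143), and with no composition factor stood at 0.07. The count of 1 lower was 5 when D80 wild-type replicate 1 was left out, 2 without D80 transgenic replicate 1, and 0 when replicate 2 of D80 wild-type or replicates 2 or 3 of D80 transgenic mice were left out. In these fits, in the order named, 3708, 2862, 2769, 2212 and 1888 of all genes were lower, against 3380 with all libraries. The count of 4 higher was 8 with no composition factor and 2 without D80 transgenic replicate 2 or 3. Of all genes, 5104 were higher with no composition factor, 2382 without replicate 2 and 2528 without replicate 3, against 2974 with TMM and all libraries.

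Among 10 tested PRC2 partners and histone H3 lysine 27 demethylases, 3 were higher and 2 lower (median 0.20). The shares over all genes were 19.4% higher and 22.0% lower. Phf19, an accessory subunit that binds methylated histone H3 lysine 36, rose from 3.83 ± 1.06 to 13.1 ± 2.33 CPM (1.77, SE 0.26, adjusted p = 3.77e-04). The histone chaperones Rbbp4 (0.35, SE 0.11, adjusted p = 0.028) and Rbbp7 (0.45, SE 0.15, adjusted p = 0.0318), which PRC2 shares with other complexes, rose as well. Leaving out replicate 3 of D80 wild-type or replicate 2 of D80 transgenic mice changed the count of 3 to 1, with 2816 and 2382 of all genes higher. The demethylase Kdm6b stood at -0.44 (SE 0.16, adjusted p = 0.0466), a call that was lost in 21 of 24 alternative settings, among them DESeq2 (adjusted p = 0.0574), limma-voom (adjusted p = 0.0524) and no composition factor (-0.006, adjusted p = 0.976). At D60 the X-linked demethylase Kdm6a, picked out after its values were seen, was the only member of this list or of the other methylation and Polycomb lists to pass. It stood at 19.8 ± 0.134 CPM in the male-type wild-type libraries and 37.7 ± 3.90 in the female-type transgenic libraries (0.92, SE 0.18, adjusted p = 0.0117). Kdm6a is known to escape X inactivation. With sex as a covariate, which rests on 1 library, its change was 0.30 (adjusted p = 1.0), and genotype and sex cannot be told apart here. Kdm6a did not pass when replicates 1 or 3 of D60 wild-type or replicate 2 of D60 transgenic mice were left out (adjusted p = 0.0562 to 0.0626).

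Of 27 genes of Polycomb repressive complex 1 and of the PR-DUB deubiquitinase, 4 were higher and 3 lower at D80 (median 0.02). The shares over all genes were 19.4% higher and 22.0% lower. The deubiquitinase Bap1 rose by 0.47 (SE 0.11, adjusted p = 0.00434). Phc3, a polyhomeotic subunit, fell by 0.71 (SE 0.12, adjusted p = 8.77e-04), the corepressor Bcorl1 by 0.69 (SE 0.16, adjusted p = 0.00504) and Pcgf3, a ring-finger subunit, by 1.19 (SE 0.29, adjusted p = 0.00673). With no composition factor 14 were higher and 1 lower, where 5104 of all 15369 genes were higher and 1001 lower. Leaving out replicates 2 or 3 of D80 wild-type or replicate 1 of D80 transgenic mice changed the count of 4 to 2, and leaving out replicate 2 of D80 transgenic mice changed it to 1. In these fits 2382 to 2853 of all genes were higher, against 2974 with all libraries.

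Gene groups known to be silenced by these systems were read at D80, where 19.4% of all genes were higher and 22.0% lower. Of 39 genes of the Hox clusters, classic Polycomb targets, 13 passed the filter on low counts, and 8 of these were lower and 0 higher (median -1.17). Hoxa3 fell from 11.3 ± 3.38 to 2.64 ± 0.237 CPM (-2.09, SE 0.39), and Hoxa4 (-1.69, SE 0.35), Hoxc4 (-2.02, SE 0.42) and Hoxa5 (-1.44, SE 0.34) fell as well. Between 6 and 9 were lower across the alternative settings, where 798 to 3708 of all genes were. In the same libraries the smooth muscle markers fell and the fibroblast markers rose, and their part in this was not tested. Of 20 germline genes known to be silenced by promoter methylation, 4 passed the filter, and 2 were higher. They were Tdrkh (2.33, SE 0.32, adjusted p = 2.31e-04), at 7.01 ± 2.31 CPM, and Tdrd1 (1.70, SE 0.56, adjusted p = 0.0295), at 0.883 ± 0.0299 CPM. Tdrd1 had 2 to 15 counts in the libraries of the other groups and passed the filter only through the D80 transgenic libraries, so that its call is conditional on being high there. Only 1 of the 2 passed when replicates 2 or 3 of D80 wild-type or any library of D80 transgenic mice were left out.

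Imprinted genes, whose expression from a single parental allele depends on DNA methylation, held the largest changes of these lists. Of 22 tested, 10 were higher and 4 lower at D80 (median 0.77), and 5 were higher at D60. Mkrn3, 1 of the 22, stood at 0.281 ± 0.116 CPM in D80 wild-type and 0.648 ± 0.192 in D80 transgenic libraries. It passed the filter on low counts only through the D80 transgenic libraries, so its place in these counts is conditional on being high there. Over all genes, 19.4% were higher and 22.0% lower at D80, and 3.66% were higher at D60. Peg10 rose from 4.57 ± 0.484 to 232.5 ± 70.5 CPM at D80 (5.67, SE 0.28), and Peg3 from 8.05 ± 1.97 to 80.7 ± 13.3 CPM (3.32, SE 0.22). Dlk1 (9.19, SE 0.57) and Zdbf2 (3.99, SE 0.37) rose as well. The count at D60 was 2 with sex as a covariate, where 85 of all 15369 genes were higher. The neuroendocrine markers rose in the same libraries, and their part in these changes was not tested.

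**Figure D5:**
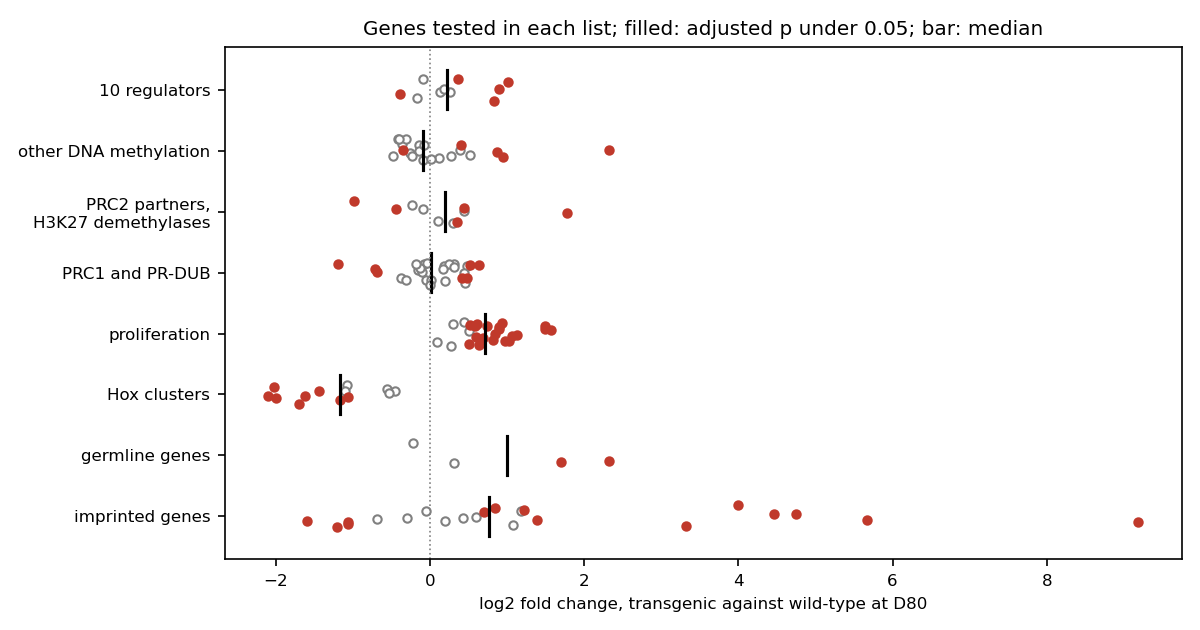
Log2 fold change between genotypes at D80 (x axis) of every tested gene of each list (y axis). Filled points passed an adjusted p of 0.05, and the bar is the median of the list. Proliferation genes lie to the right of 0 and Hox genes to the left, while the DNA methylation and Polycomb lists spread around 0 with medians of -0.09 to 0.22.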

How the data were processed

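RNA-seq of bulk pylorus was measured in 12 libraries. The authors deposited raw counts per gene symbol, and the values used here are those counts, with no normalization. The submitters' processing notes name, without roles, the build mm10, edgeR 3.16.5, HTSeq 0.9.1 and STAR 2.5.3a. How strand was handled and which annotation was counted is not given in the sources used here. For Dnmt3a, Ezh2, Suz12 and Eed, 0.799% to 6.82% of exon bases overlap an antisense gene. A deposited normalized table was not used.

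In R 4.3.3, edgeR 4.0.16 was run with filterByExpr, which kept 15369 genes and all 10 members, TMM factors of 0.805 to 1.30, 1 coefficient per group and a quasi-likelihood test. The Benjamini-Hochberg method was applied over all tested genes, with calls at an adjusted p under 0.05. SE is the change over the root of F. No minimum fold change was set. Alternatives used DESeq2 1.42.0 and limma 3.58.1. On simulated data, where 15155 genes were tested, the D80 comparison called 38% of 2-fold and 82% of 4-fold changes. Far fewer genes were changed there than the 6354 called at D80 in the real data. These shares therefore do not measure how often the real D80 test finds such changes.

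The members and lists were chosen with earlier results of these data known. All members were named, and up to 4 genes per other list by smallest p at D80. The all-gene values per proliferation count, the checks of the filter, and the alternatives for the other lists were added after seeing the data.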

Additional observations from a re-analysis of the deposited data

Results flagged for a closer look

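With edgeR no member had a genotype difference that was called as different between the ages. At an unadjusted p under 0.05 there were 2 members, where 3567 of all 15369 genes passed. DESeq2 called Dnmt3a (0.46, adjusted p = 0.0436), and of all genes it called 948 higher and 797 lower. Among the other genes named above, 4 had such a difference, by the interaction of genotype and age in edgeR's quasi-likelihood fit. All but Kdm6a were named for a small p at D80. The interaction holds that same D80 difference, so these calls are not independent of the choice of genes. Kdm6a had an interaction of -1.15 on the log2 scale (adjusted p = 0.0265), in a design where D60 genotype and sex coincide, and with sex as a covariate, which rests on 1 library, it was -0.34 (adjusted p = 0.674). The Kdm6a call was lost in 9 of 12 fits that left out a single library (adjusted p = 0.0541 to 0.0708) and with no composition factor (-0.83, adjusted p = 0.0922). Peg10 had an interaction of 2.45 (adjusted p = 0.00604) and Peg3 of 1.99 (adjusted p = 0.00758), both larger at D80. Rrm2, of the proliferation list, had an interaction of 1.11 (adjusted p = 0.0383). For Peg10, Peg3 and Rrm2 the interaction was not run in the alternative settings, and genotype and sex at D60 coincide for them as well.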

How the results depend on the processing

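Dnmt1 kept its D80 call in all 24 alternatives tried (other scaling factors, count filters, DESeq2, limma-voom, sex or replicate number in the fit, a minimum fold of 1.5 and single libraries left out), and Uhrf1 and Hells in all but the minimum fold. With that minimum, 1 member was higher and 0 lower at D80, and 0 were higher between ages in transgenic mice. Of all 15369 genes, 1806 were then higher and 798 lower at D80, and 1284 were higher between transgenic ages. The count of 1 lower at D80 was 0 with no composition factor, 0 with upper-quartile factors, 0 in a fit of the D80 libraries alone, and 0 to 1 with single libraries left out. Of all 15369 genes, 3380 were lower at D80 with TMM, 1001 with no composition factor and 2093 with upper-quartile factors. The fit of the D80 libraries alone had 2038 of 15220 genes lower, and fits without single libraries had 1888 to 3708. The count of 2 higher between ages in transgenic mice was 4 with DESeq2, DESeq2 size factors, upper-quartile factors or the 2 groups alone, 5 with no composition factor, and 1 to 4 with single libraries left out. Of all 15369 genes, 2725 were higher there with TMM, 3249 with DESeq2, 2894 with DESeq2 size factors and 3114 with upper-quartile factors. No composition factor gave 5154, the 2 groups alone 3596 of 15195 genes, and single libraries left out 1792 to 3334. DESeq2 called 1 interaction among the members, and over all 15369 genes it called 948 higher and 797 lower. At D60 0 to 1 members were higher with single libraries left out, and 1 without the 2 D80 libraries highest in duodenal and pancreatic markers. Of all genes, 364 to 669 were higher at D60 with single libraries left out, and 594 of 15534 without those 2 libraries. The cause of these differences was not tested.

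Directions turned as follows, and of these results the D80 call of Ezh1 alone concerns a member that had passed. With no composition factor, the D80 values of Dnmt3b, Ezh1 and Eed were 0.246, 0.027 and 0.327, those of Usp7 and Kdm6a 0.066 and 0.206, the D60 values of Dnmt3a, Dnmt3b and Suz12 0.057, 0.106 and 0.092, the transgenic age values of Dnmt3b, Ezh1 and Eed 0.14, 0.30 and 0.28, the wild-type age value of Tet1 0.013, and the interactions of Dnmt3b and Ezh1 0.14 and 0.088. With upper-quartile factors, Dnmt3b and Suz12 stood at 0.03 and 0.021 at D60, Eed at 0.071 at D80, and Ezh1 and Eed at 0.037 and 0.016 between transgenic ages. With sex as a covariate, Dnmt3a and Tet1 stood at 0.097 and 0.031 at D60 and at 0.02 and 0.20 between wild-type ages, and the interactions of Dnmt3b, Uhrf1 and Ezh2 were 0.15, -0.14 and -0.003. Limma-voom gave Tet1 0.033 between wild-type ages. Without the 2 D80 libraries named above, the interactions of Uhrf1, Ezh2 and Eed were -0.015, -0.122 and -0.029, and Kdm6a stood at 0.023 at D80. With single libraries left out, D60 values ran from -0.12 to 0.018 for Dnmt3a, -0.34 to 0.21 for Dnmt3b, -0.103 to 0.084 for Suz12 and -0.37 to 0.21 for Tet1. Eed at D80 ran from -0.17 to 0.013 and Dnmt3b between transgenic ages from -0.45 to 0.14. Between wild-type ages the ranges were -0.01 to 0.56 for Hells, -0.18 to 0.18 for Ezh2, -0.24 to 0.025 for Suz12 and -0.20 to 0.38 for Tet1. Interactions ran from -0.38 to 0.22 for Dnmt3b, -0.11 to 0.25 for Ezh2, -0.023 to 0.162 for Eed and -0.031 to 0.577 for Tet1.

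Replicate numbers did not pair the libraries. Over 18 same-numbered pairs the mean correlation of deviations was -0.004 (-0.344 to 0.393), and 3 of 12 libraries lay closest to their own number. With the replicate block, all-gene calls at D80 were 2927 higher and 3066 lower, against 2974 and 3380, Uhrf1 passed between transgenic ages (0.50, adjusted p = 0.029), and Tet1 stood at 0.023 between wild-type ages. With sex as a covariate 85 genes were higher at D60, against 562. Dnmt3b, at 44 to 91 counts, and Tet1, at 52 to 169, had the lowest counts of the members and the widest intervals at D80.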
